A study of Mus musculus with 16 samples.

Results

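Fc gamma receptors and scavenger receptors are surface proteins with which phagocytes recognise antibody-coated particles and modified lipids, proteins and debris. The genes described here are the Fc gamma receptors Fcgr1, Fcgr2b, Fcgr3 and Fcgr4, the signalling chain Fcer1g, and the scavenger receptors Msr1, Scarb1, Stab1 and Marco. They were chosen by name, 9 genes of the 55414 features counted in microglia and the 56980 counted in astrocytes, and each name had 1 row. Of the 9, 8 passed the filter on low counts in each cell type and were tested, and Marco did not pass in either. Names and values are those of the RNA, not of the proteins.

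The libraries hold RNA of microglia and of astrocytes from mice, with 2 libraries for each of 4 genotypes in each cell type, 16 libraries in all. AD CKO libraries came from an Alzheimer's disease (AD) model that also carried a conditional knockout of Rack1, AD WT libraries from that model with Rack1 intact, CKO libraries from the knockout without the AD model, and WT libraries from neither. The design text places the knockout in microglia, so astrocytes of CKO and AD CKO mice are cells beside knockout microglia. Rack1 is a ribosome-bound scaffold for signalling kinases. The labels name no AD transgene, Cre driver, strain, age or cell isolation, and do not say whether the libraries of a genotype came from separate animals. The p-values therefore measure the spread between these libraries, which may be technical.

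Among the Fc gamma receptors, Fcgr1 binds monomeric IgG with high affinity, while Fcgr3 and Fcgr4 bind immune complexes. These activating receptors need the common gamma chain Fcer1g, whose ITAM recruits the kinase Syk and starts phagocytosis and the oxidative burst. Fcgr2b is the inhibitory member: its ITIM recruits the phosphatase Inpp5d and dampens the signal of activating receptors bound to the same complex. Msr1 and Marco are class A scavenger receptors, and Msr1 is known as a receptor for fibrillar amyloid-beta on microglia. Scarb1 is a class B receptor that takes up cholesterol esters from high-density lipoprotein, and Stab1 clears modified lipoproteins and dying cells in macrophages and sinusoidal endothelium.

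Total counts ran from 27741882 to 33933068 in the microglia libraries and from 29615853 to 35851170 in the astrocyte libraries. Levels are given as CPM, the counts of a gene scaled by the TMM-effective library size. Rose and fell mean a Benjamini-Hochberg adjusted p below 0.05 in edgeR's quasi-likelihood test. Rack1 was at 47.2 and 47.8 CPM in AD CKO microglia, against 113 and 115 CPM in AD WT microglia, and at 40.4 and 42.0 CPM in CKO microglia, against 98.1 and 95.2 CPM in WT microglia. In astrocyte libraries Rack1 also differed: it fell by 0.47 ± 0.06 on the log2 scale for AD CKO over AD WT (54.7 and 53.3 CPM, against 76.6 and 72.9 CPM) and rose by 0.74 ± 0.06 for CKO over WT (102 and 95.7 CPM, against 61.1 and 57.9 CPM). The summed level of 10 microglia markers was 33161 to 53946 CPM in microglia libraries and 549 to 2062 CPM in astrocyte libraries, where it differed between genotypes. Their summed oligodendrocyte markers, at 6576 to 18703 CPM, were of the order of their 10 astrocyte markers, at 7704 to 19335 CPM. In all of these libraries, fewer cells of a type and less RNA per cell cannot be told apart.

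In knockout microglia the inhibitory receptor Fcgr2b and the activating receptors Fcgr3 and Fcgr4 fell, while the scavenger receptors Msr1 and Stab1 and the high-affinity receptor Fcgr1 rose. Without the AD model, 6 of the 8 receptors tested changed, 3 higher and 3 lower, beside 33.6% of the 17318 genes tested in microglia (17.7% higher, 15.9% lower). Within the AD model 8 of 8 changed, 4 higher and 4 lower, beside 32% of genes (17% higher, 15% lower). The 6 changes without the AD model had the same direction within it, in libraries that the comparisons did not share. Most of these receptors are highly counted, and small changes pass more readily at high counts. Among genes tested, the mean count of Fcgr3 was at percentile 99.6, Fcer1g 99.4, Stab1 98.2, Fcgr2b 97.3 and Fcgr1 96.3. Scarb1 was at 84, Msr1 at 68.2 and Fcgr4 at 50.9. The share called among genes of like counts was not taken. The median log2 fold change of the 8 receptors was -0.06 for CKO over WT and -0.11 for AD CKO over AD WT, against 0.04 and -0.002 over all genes tested.

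**Figure D1:**
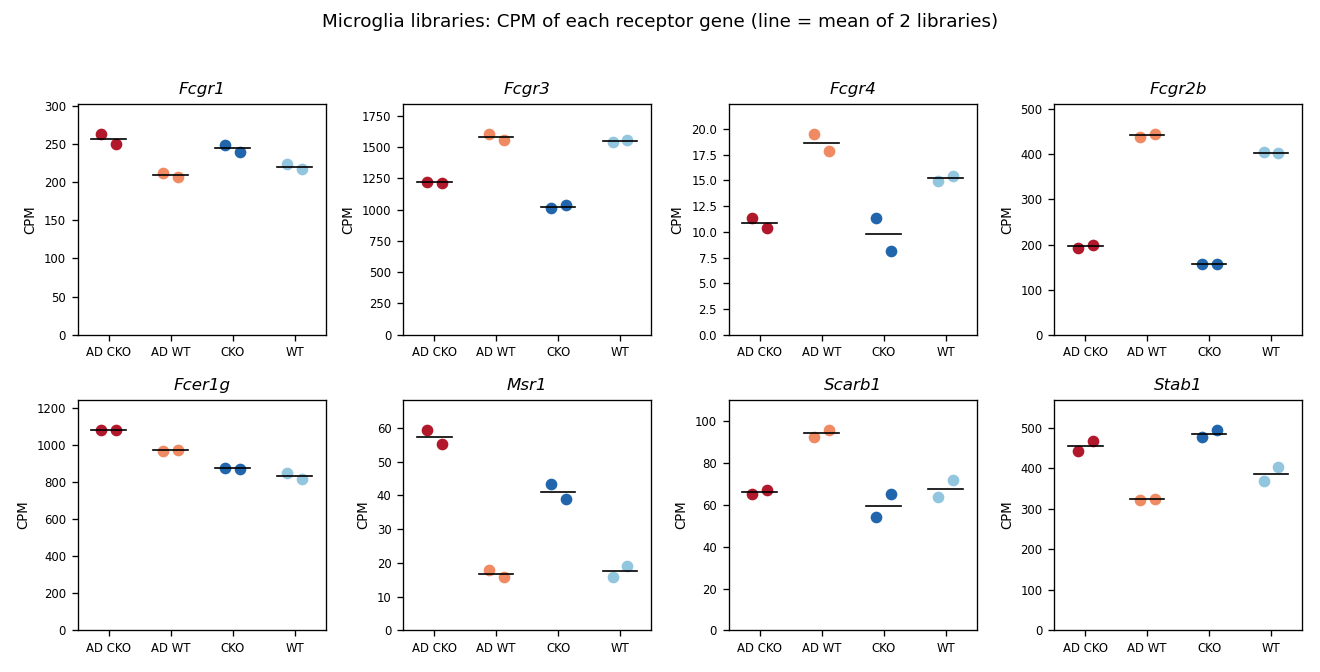
CPM of the 8 tested receptor genes in each of the 8 microglia libraries, 1 panel per gene, with genotypes along the x axis, a point per library and a line at the mean of the 2 libraries. Fcgr2b lies between 157 and 199 CPM in the 4 knockout libraries and between 403 and 445 CPM in the 4 libraries with intact Rack1, and Msr1 shows the opposite order.

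Fcgr2b, the inhibitory receptor, had 193 and 199 CPM in AD CKO microglia, 439.5 and 445 CPM in AD WT, 157 and 157 CPM in CKO, and 404 and 403 CPM in WT. Each of the 4 knockout libraries lay below each of the 4 libraries with intact Rack1. It fell by 1.36 ± 0.04 on the log2 scale (SE) for CKO over WT, which is 2.57-fold lower, with an adjusted p of 9.01e-20. For AD CKO over AD WT it fell by 1.17 ± 0.04, or 2.26-fold, with an adjusted p of 4.00e-18.

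Fcgr3, the activating receptor of immune complexes, was at 1219 and 1217 CPM in AD CKO microglia, 1603 and 1558 CPM in AD WT, 1012 and 1036 CPM in CKO, and 1541 and 1560.1 CPM in WT. Again the knockout libraries were lower than both kinds of control without overlap. The log2 fold change was -0.60 ± 0.03 for CKO over WT (adjusted p = 5.33e-14) and -0.38 ± 0.03 for AD CKO over AD WT (adjusted p = 1.24e-09), less than that of Fcgr2b in both.

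These 2 genes share coding sequence. Fcgr2b lies at chr1:170958617-170976547 and Fcgr3 at chr1:171051174-171064935 of GRCm38, both on the minus strand. Over 509 aligned bases their longest GENCODE M21 transcripts were 96.5% identical, and the longest identical stretch had 129 bases, while reads were 150 bases long. It lies in the coding sequence, across exons 3 and 4 of each transcript. It is printed because it is the longest stretch over which the transcripts cannot be told apart. It is shorter than a read, and how reads across it were assigned is not given in the sources used here, so the split of counts between the genes is uncertain.
Fcgr2b and Fcgr3, shared coding stretch: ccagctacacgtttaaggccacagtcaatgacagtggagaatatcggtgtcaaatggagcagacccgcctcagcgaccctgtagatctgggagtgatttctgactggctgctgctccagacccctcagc
No other pair of the 4 Fc gamma receptors shared an identical stretch of 31 bases. With the reads of Fcgr2b and Fcgr3 summed to 1 feature, the log2 fold change was -0.73 for CKO over WT and -0.52 for AD CKO over AD WT, so the sum also fell.

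The balance of the inhibitory over the activating transcript shifted within each library. In AD CKO microglia there were 15.8 and 16.3 Fcgr2b reads for every 100 Fcgr3 reads, against 27.4 and 28.5 in AD WT. In CKO microglia there were 15.5 and 15.1, against 26.2 and 25.8 in WT. The knockout libraries lay apart from the others, and the AD CKO and AD WT ratios differed little from those of CKO and WT. Set against the summed reads of Fcgr1, Fcgr3 and Fcgr4, Fcgr2b averaged 13.2 ± 0.4 reads per 100 in AD CKO, 24.5 ± 0.7 in AD WT, 12.3 ± 0.1 in CKO and 22.6 ± 0.2 in WT (SD, n = 2 each). These ratios are free of library scaling but not of length, so they compare libraries and not the abundance of the genes.

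**Figure D2:**
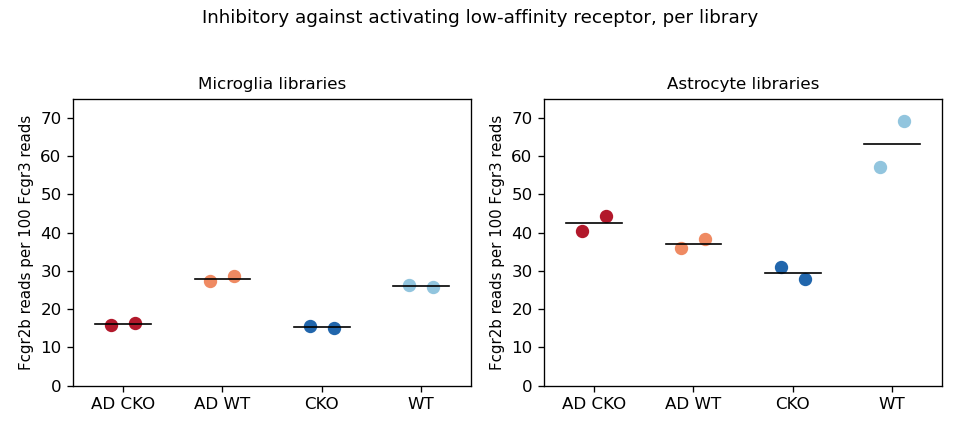
Fcgr2b reads per 100 Fcgr3 reads (y axis) in each library of microglia (left) and astrocytes (right), with a point per library and a line at the mean of 2. In microglia the 4 knockout libraries sit between 15.1 and 16.3 and the others between 25.8 and 28.5, while in astrocyte libraries the values run from 28.0 in CKO to 69.3 in WT.

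Fcgr4, an activating receptor for some IgG subclasses, had 11.3 and 10.4 CPM in AD CKO microglia, 19.5 and 17.8 CPM in AD WT, 11.4 and 8.13 CPM in CKO, and 14.9 and 15.5 CPM in WT. Both knockout groups were lower than their controls without overlap, and the CKO pair was the most spread. It changed by -0.78 ± 0.14 on the log2 scale for AD CKO over AD WT (adjusted p = 5.62e-05) and by -0.64 ± 0.14 for CKO over WT (adjusted p = 6.80e-04).

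Fcgr1, the high-affinity receptor at chr3:96282909-96293969 on the minus strand, was at 263 and 250.3 CPM in AD CKO microglia, 212 and 207 CPM in AD WT, 248 and 239 CPM in CKO, and 223 and 217 CPM in WT. Alone among the 4 Fc gamma receptors it was higher in the knockout libraries. The rise was 1.23-fold for AD CKO over AD WT (log2 0.29 ± 0.05, adjusted p = 1.24e-05) and 1.11-fold for CKO over WT (log2 0.15 ± 0.05, adjusted p = 0.0132). The smaller rise lost its call in 4 of 15 alternatives: with no low-count filter, in a fit of CKO and WT alone, without CKO replicate 1 (log2 0.09) and without WT replicate 2 (log2 0.13).

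Fcer1g, the signalling chain that the activating receptors share, had 1085 and 1084 CPM in AD CKO microglia, 970.3 and 975 CPM in AD WT, 878 and 875 CPM in CKO, and 852 and 816 CPM in WT. The groups were ordered AD CKO, AD WT, CKO and WT without overlap between neighbours, but CKO over WT was only 0.07 ± 0.04 on the log2 scale and did not pass (adjusted p = 0.136). AD CKO over AD WT was 0.16 ± 0.04 (adjusted p = 0.00122). Fcer1g therefore rose within the AD model, where Fcgr3 and Fcgr4 fell. Fcgr3 reads per 100 Fcer1g reads averaged 112 ± 0.02 in AD CKO, 162 ± 3.9 in AD WT, 117 ± 2.2 in CKO and 186 ± 7.3 in WT (SD, n = 2 each).

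The low-affinity receptors and Fcer1g lie together: Fcgr2b, Fcgr4 (chr1:171018920-171029761, plus strand), Fcgr3 and Fcer1g (chr1:171229572-171234365, minus strand) fall within 275.7 kb of chromosome 1, and Fcgr1 is on chromosome 3. The promoters of the 4 Fc gamma receptors are printed because 3 of these genes fell together and 1 rose. They are RefSeq sequences of GRCm38.p6, from 250 bases before to 50 after the start, with capitals marking GAGGAA on either strand (written TTCCTC where it is on the other), the core bound by PU.1-type factors of myeloid cells. The Fcgr3 and Fcgr2b windows lie inside the GENCODE spans of these genes given above.
Fcgr1 (chr3:96293920-96294219, minus strand): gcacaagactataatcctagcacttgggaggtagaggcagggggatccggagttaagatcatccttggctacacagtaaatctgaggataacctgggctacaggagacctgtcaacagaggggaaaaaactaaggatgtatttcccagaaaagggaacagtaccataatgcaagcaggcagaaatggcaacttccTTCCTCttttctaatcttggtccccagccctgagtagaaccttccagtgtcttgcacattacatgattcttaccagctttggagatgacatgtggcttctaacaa
Fcgr3 (chr1:171059354-171059653, minus strand): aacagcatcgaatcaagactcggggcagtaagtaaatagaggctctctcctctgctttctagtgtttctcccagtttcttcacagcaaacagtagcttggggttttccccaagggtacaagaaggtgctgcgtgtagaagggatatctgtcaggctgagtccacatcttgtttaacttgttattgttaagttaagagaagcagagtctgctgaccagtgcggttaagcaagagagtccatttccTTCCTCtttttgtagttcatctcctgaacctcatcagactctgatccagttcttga
Fcgr4 (chr1:171018676-171018975, plus strand): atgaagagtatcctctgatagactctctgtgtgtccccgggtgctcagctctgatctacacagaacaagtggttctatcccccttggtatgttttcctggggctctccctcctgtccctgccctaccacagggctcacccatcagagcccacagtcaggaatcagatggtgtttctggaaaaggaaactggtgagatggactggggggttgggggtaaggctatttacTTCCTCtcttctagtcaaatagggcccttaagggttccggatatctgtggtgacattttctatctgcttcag
Fcgr2b (chr1:170976022-170976321, minus strand): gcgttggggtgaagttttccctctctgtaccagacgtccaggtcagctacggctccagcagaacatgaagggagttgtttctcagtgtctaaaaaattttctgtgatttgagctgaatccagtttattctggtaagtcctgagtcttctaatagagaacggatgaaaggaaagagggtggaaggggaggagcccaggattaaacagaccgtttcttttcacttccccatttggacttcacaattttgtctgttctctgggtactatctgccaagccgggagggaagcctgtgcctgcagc
RefSeq promoters were matched for 7 of the 9 genes. The core stood in those of Fcgr1, Fcgr3, Fcgr4, Marco and Stab1 and in 28.3% of 32851 promoters of the same length. It was not in the windows of Fcgr2b and Fcer1g. TTCNNNGAA, a palindromic spacing bound by STAT factors, was in the Fcgr1 window among the 7 and in 8.3% of all promoters. These matches describe the letters and do not mark sites in use.

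Msr1, the class A scavenger receptor, had 59.5 and 55.2 CPM in AD CKO microglia, 17.8 and 15.8 CPM in AD WT, 43.4 and 38.8 CPM in CKO, and 15.9 and 19.0 CPM in WT. The knockout libraries were the 4 highest, AD CKO lay above CKO, and AD WT overlapped WT. Msr1 rose 3.41-fold for AD CKO over AD WT (log2 1.77 ± 0.10, adjusted p = 4.46e-14), the largest change of the 8 receptors there. For CKO over WT it rose 2.36-fold (log2 1.24 ± 0.10, adjusted p = 5.07e-11).

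Stab1, the clearance receptor at chr14:31139013-31168641 on the minus strand, had 444 and 468 CPM in AD CKO microglia, 322 and 325 CPM in AD WT, 476 and 495 CPM in CKO, and 369 and 404 CPM in WT. The order was CKO, AD CKO, WT and AD WT, with no overlap between neighbours. It rose by 0.49 ± 0.05 on the log2 scale for AD CKO over AD WT (adjusted p = 1.52e-09) and by 0.33 ± 0.05 for CKO over WT (adjusted p = 1.30e-06). Its annotation shares 112 bases with Nt5dc2 on the other strand. Nt5dc2 was at 16.3 to 26.4 CPM in microglia, and the counting is not stated to use strand, so reads of those bases cannot be told apart.

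Scarb1, the lipoprotein receptor at chr5:125277087-125341094, was at 65.2 and 67.2 CPM in AD CKO microglia, 92.8 and 96.0 CPM in AD WT, 54.0 and 65.1 CPM in CKO, and 63.7 and 71.9 CPM in WT. The AD WT libraries stood above the other 6, which overlapped one another except for AD CKO and CKO. It fell 1.43-fold for AD CKO over AD WT (log2 -0.51 ± 0.08, adjusted p = 1.45e-05). CKO over WT was -0.19 ± 0.08 and did not pass (adjusted p = 0.0682), though it passed in 5 of 15 alternatives, among them those without CKO replicate 2 (log2 -0.33) and without WT replicate 1 (log2 -0.27).

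Marco, the other class A receptor, was almost unread. Its counts were 2 and 0 in AD CKO microglia, 0 and 0 in AD WT, 2 and 1 in CKO, and 4 and 0 in WT, and 0 in all 8 astrocyte libraries. A count of 0 allows up to 3 counts, which is 0.0908 to 0.105 CPM in the microglia libraries and 0.0799 to 0.104 CPM in the astrocyte libraries (counting error only). No comparison of Marco was possible at this depth.

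**Figure D3:**
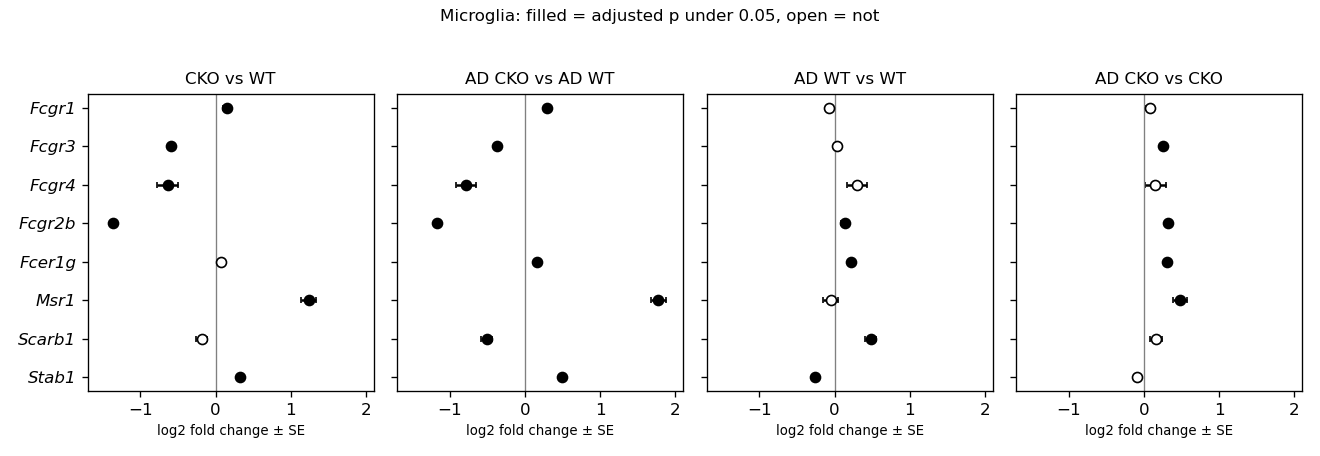
Log2 fold changes (x axis, with the standard error as a bar) of the 8 tested receptors in microglia, 1 panel per comparison, with filled points where the adjusted p is under 0.05. In the CKO vs WT and AD CKO vs AD WT panels Msr1 lies furthest right, at 1.24 and 1.77, and Fcgr2b furthest left, at -1.36 and -1.17.

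The markers of microglia and of other cells also differed between these libraries. The summed 10 microglia markers, led by Csf1r with 22% of the sum, were at 35471 to 37264 CPM in AD CKO, 47285 to 47630 CPM in AD WT, 33161 to 34372 CPM in CKO and 51496 to 53946 CPM in WT. Of the 10, 4 fell and 2 rose for AD CKO over AD WT, and 8 fell and 1 rose for CKO over WT. As a percentage of this sum Fcgr3 averaged 3.35 ± 0.12 in AD CKO, 3.33 ± 0.08 in AD WT, 3.03 ± 0.03 in CKO and 2.94 ± 0.07 in WT (SD, n = 2 each), so its fall was about that of the marker sum. Fcgr2b was lower on this scale too, at 0.539 ± 0.007% in AD CKO, 0.932 ± 0.003% in AD WT, 0.465 ± 0.012% in CKO and 0.766 ± 0.028% in WT. Fcgr4 was at 0.0299 ± 0.0028% in AD CKO, 0.0393 ± 0.0027% in AD WT, 0.0289 ± 0.0075% in CKO and 0.0288 ± 0.0002% in WT, so AD CKO lay below AD WT while the CKO libraries spread around those of WT. Scarb1 was at 0.182 ± 0.003% in AD CKO, 0.199 ± 0.004% in AD WT, 0.176 ± 0.019% in CKO and 0.1285 ± 0.0068% in WT. It was thus lower in AD CKO than in AD WT but higher in CKO than in WT. Fcgr1, Fcer1g, Msr1 and Stab1 averaged higher in both knockout groups than in their controls. No test was run on this scale.

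Msr1 and Stab1 are also made by border macrophages, whose 8 markers summed to 301 to 302 CPM in AD CKO microglia, 177 to 178 CPM in AD WT, 394 to 397 CPM in CKO and 207 to 208 CPM in WT. Mrc1 gave 44.1% of the sum, none of the 8 was at 0, and 5 rose for AD CKO over AD WT and 6 for CKO over WT. The 7 neutrophil markers summed to 276 to 289.8 CPM in AD CKO, 441 to 444 CPM in AD WT, 625 to 626 CPM in CKO and 229 to 246 CPM in WT, which is lower in one knockout comparison and higher in the other. The 5 monocyte markers were at 65.4 to 67.4 CPM in AD CKO, 67.8 to 69.5 CPM in AD WT, 111 to 117 CPM in CKO and 65.5 to 68.7 CPM in WT. B cells carry Fcgr2b as well, and their 6 markers summed to 483 to 499 CPM in AD CKO, 647 to 651 CPM in AD WT, 499.7 to 515 CPM in CKO and 717 to 744 CPM in WT. Ighm gave 97% of that sum, Cd79a was at 0.226 to 0.791 CPM, and Pax5 was at 0 in 5 of the 8 libraries. The 8 endothelial markers, of cells that carry Scarb1, were highest in AD WT like Scarb1 itself, at 494 to 499 CPM in AD CKO, 708 to 718 CPM in AD WT, 452 to 460.2 CPM in CKO and 407 to 411 CPM in WT. Scarb1 was read in astrocyte libraries too, and the 10 astrocyte markers summed to 299 to 302 CPM in AD CKO microglia libraries, 401 to 406 CPM in AD WT, 359 to 362 CPM in CKO and 307 to 309.8 CPM in WT, with 8 lower for AD CKO over AD WT, and 7 higher and 1 lower for CKO over WT. The largest sum after that of microglia was that of the 8 oligodendrocyte markers, at 2256 to 2308 CPM in AD CKO, 3736 to 3741 CPM in AD WT, 8211 to 8608 CPM in CKO and 3136 to 3277 CPM in WT. Mbp gave 72.1% of this sum. For AD CKO over AD WT 8 of 8 were lower, while for CKO over WT 4 rose and 2 fell. The part of these cells in the receptor results was not tested.

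With Rack1 intact, Scarb1 and Fcer1g were higher and Stab1 lower in AD microglia. In AD WT over WT 4 of the 8 tested changed, 3 higher and 1 lower, beside 19.3% of genes (10.7% higher, 8.62% lower). Scarb1 rose by 0.48 ± 0.08 on the log2 scale (adjusted p = 5.71e-05), with AD WT at 92.8 and 96.0 CPM above WT at 63.7 and 71.9 CPM. Fcer1g rose by 0.22 ± 0.04 (adjusted p = 3.50e-05), and Stab1 fell by 0.26 ± 0.05 (adjusted p = 1.06e-04). Fcgr2b rose by 0.13 ± 0.04 (adjusted p = 0.0248), a call lost in 5 of 16 alternatives: without either AD WT library (log2 0.14 and 0.12), without either WT library (log2 0.13 and 0.13) and with its reads summed with those of Fcgr3 (log2 0.05). Fcgr1 at -0.07 ± 0.05, Fcgr3 at 0.03 ± 0.03, Fcgr4 at 0.30 ± 0.13 and Msr1 at -0.05 ± 0.10 did not pass.

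In knockout microglia, AD over non-AD gave 4 changes among the 8 tested, all 4 higher, beside 14.7% of genes (7.73% higher, 6.92% lower). For AD CKO over CKO Msr1 rose by 0.48 ± 0.09 (adjusted p = 3.65e-04), Fcgr2b by 0.32 ± 0.04 (adjusted p = 2.97e-06), Fcer1g by 0.31 ± 0.04 (adjusted p = 3.13e-07) and Fcgr3 by 0.25 ± 0.03 (adjusted p = 4.11e-06). The levels given above show no overlap between AD CKO and CKO for any of these 4 genes. Fcgr1 at 0.07 ± 0.05, Fcgr4 at 0.15 ± 0.14, Scarb1 at 0.15 ± 0.08 and Stab1 at -0.09 ± 0.05 did not pass. Each genotype serves in 2 of these 4 comparisons, so the values are set side by side and are not independent of one another.

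The interaction, the knockout effect within the AD model minus that without it, tests whether the effects differ. It passed for 3 of the 8 receptors tested, all 3 positive, beside 12.7% of genes (5.53% positive, 7.19% negative). Msr1 rose further within the AD model, by 0.53 ± 0.14 on the log2 scale (adjusted p = 0.00955), and Fcgr3 fell less there, by 0.22 ± 0.05 (adjusted p = 0.00204). For Fcgr2b the difference was 0.19 ± 0.06 (adjusted p = 0.0365), again a smaller fall within the AD model, but the call was lost in 8 of 15 alternatives, including 7 of the 8 that left out a library. The Msr1 call was lost in 3 of 14: without AD WT replicate 2 (log2 0.45), without CKO replicate 2 (log2 0.45) and without WT replicate 2 (log2 0.41). Scarb1 at -0.32 ± 0.11 missed the threshold (adjusted p = 0.0535) and passed in 5 of 14 alternatives.

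Per kilobase of the longest transcript, Fcer1g and Fcgr3 were the most abundant of the 9 receptors in all 4 microglia groups. Fcer1g had 1588 ± 1 CPM per kb in AD CKO, 1424 ± 5 in AD WT, 1283 ± 3 in CKO and 1221 ± 38 in WT (SD, n = 2 each). Fcgr3 had 904 ± 1 CPM per kb in AD CKO, 1173 ± 24 in AD WT, 760.1 ± 12.6 in CKO and 1151 ± 10 in WT. The next rank changed with Rack1: Fcgr1 was the third in the knockout groups, at 99.1 ± 3.4 CPM per kb in AD CKO and 94.2 ± 2.5 in CKO, and Fcgr2b was the third in the others, at 125 ± 1 in AD WT and 114 ± 0.4 in WT. In the knockout groups Fcgr2b was in place 5, at 55.3 ± 1.2 CPM per kb in AD CKO, within the SD of Stab1 at 57.0 ± 2.2, and at 44.3 ± 0.01 in CKO, below Stab1 at 60.7 ± 1.7. Scarb1 followed at 23.6 to 37.4 CPM per kb. Msr1 was next in the knockout groups, at 15.8 in AD CKO and 11.3 in CKO, above Fcgr4 at 8.63 and 7.76, and Fcgr4 was next in the others, at 14.9 in AD WT and 12.1 in WT, above Msr1 at 4.62 and 4.80. With the principal transcript of Msr1, of 1424 bases in place of 3636, Msr1 came to 11.8 to 40.3 CPM per kb and passed Scarb1 in the knockout groups.

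The lists around these receptors, chosen for their known roles but with earlier results of these data known, moved in mixed ways. Of 18 ITAM signalling genes tested in microglia, 10 rose and 3 fell for AD CKO over AD WT, against 4 and 8 for CKO over WT and 4 and 9 for AD WT over WT. Of all genes tested, 32% were called for AD CKO over AD WT (17% higher, 15% lower). The share was 33.6% for CKO over WT (17.7% higher, 15.9% lower) and 19.3% for AD WT over WT (10.7% higher, 8.62% lower). Tyrobp, the other ITAM adaptor of microglia, fell by 0.78 ± 0.04 for AD CKO over AD WT (adjusted p = 3.07e-12) and by 0.51 ± 0.04 for CKO over WT (adjusted p = 2.25e-09), and rose by 0.74 ± 0.04 for AD WT over WT (adjusted p = 1.41e-11). The adaptor Blnk fell by 0.46 ± 0.05 and by 0.59 ± 0.05 in the knockout comparisons with and without the AD model. The kinase Lyn rose by 0.38 ± 0.04 for AD CKO over AD WT and the kinase Fyn by 0.80 ± 0.09 for CKO over WT. The median log2 fold change of the list was 0.16 for AD CKO over AD WT and -0.06 for CKO over WT.

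Of 15 inhibitory signalling genes tested, 4 rose and 1 fell for AD CKO over AD WT, 5 rose and 4 fell for CKO over WT, and 2 rose and 5 fell for AD WT over WT. The share of all genes called was 32%, 33.6% and 19.3% in the same order. While Fcgr2b fell, the inhibitory receptors Lilrb4a and Pirb rose: Lilrb4a by 1.48 ± 0.05 for AD CKO over AD WT and by 1.93 ± 0.05 for CKO over WT, and Pirb by 1.05 ± 0.06 and 0.95 ± 0.06 in the same comparisons. Sirpa, which binds the do-not-eat signal Cd47, fell by 0.38 ± 0.03 and by 0.50 ± 0.03 there. Lilrb4a also rose by 1.24 ± 0.05 for AD WT over WT. The median of the list was -0.04 for AD CKO over AD WT and -0.08 for CKO over WT.

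Of the 6 phagocyte oxidase genes, which make the oxidative burst that Fc receptors trigger, 2 rose and 1 fell for AD CKO over AD WT, 2 rose and 2 fell for CKO over WT, and 2 rose and 3 fell for AD WT over WT. Beside these counts, 32%, 33.6% and 19.3% of all genes were called in the same order. Cybb, the catalytic subunit, rose by 2.24 ± 0.05 for AD CKO over AD WT (adjusted p = 1.56e-22), by 2.68 ± 0.05 for CKO over WT (adjusted p = 2.07e-24) and by 0.71 ± 0.05 for AD WT over WT (adjusted p = 2.02e-11). The cytosolic subunit Ncf4 rose by 0.58 ± 0.06 and 0.39 ± 0.06 in the knockout comparisons with and without the AD model. The median was 0.11 for AD CKO over AD WT and -0.03 for CKO over WT.

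Of 13 other Fc-binding proteins 5 were tested, and 1 rose and 2 fell for AD CKO over AD WT, 0 rose and 3 fell for CKO over WT, and 1 rose and 2 fell for AD WT over WT. Fcrls, an Fc receptor-like gene that marks mouse microglia, fell by 0.64 ± 0.03 for AD CKO over AD WT and by 1.18 ± 0.03 for CKO over WT, and rose by 0.27 ± 0.03 for AD WT over WT. Trim21, the cytosolic antibody receptor, rose by 0.46 ± 0.08 for AD CKO over AD WT. Of 17 other scavenger receptors tested, 8 rose and 3 fell for AD CKO over AD WT, 7 rose and 1 fell for CKO over WT, and 6 rose and 1 fell for AD WT over WT. Beside both lists, 32%, 33.6% and 19.3% of all genes were called in the same order. Cxcl16 rose by 1.13 ± 0.05 and 1.54 ± 0.05, the mannose receptor Mrc1 by 1.22 ± 0.06 and 1.4997 ± 0.05, the fatty acid transporter Cd36 by 1.04 ± 0.11 and 1.56 ± 0.10, and the oxidised lipoprotein receptor Olr1 by 1.53 ± 0.17 and 1.55 ± 0.19 in the knockout comparisons with and without the AD model. Mrc1 is also on the border macrophage list above. The medians of these 17 were 0.14 and 0.19, against -0.002 and 0.04 over all genes.

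The genes whose log2 CPM was most like that of a receptor over the 8 microglia libraries were looked up among 10159 genes for the 3 receptors with the widest range of group means. For Fcgr2b they were Egr1, Npnt and Sirpa, with Pearson r of 0.998, 0.998 and 0.997. Egr1, an immediate early transcription factor, averaged 223 ± 5.2 CPM in AD CKO, 677 ± 23.5 CPM in AD WT, 153 ± 2.6 CPM in CKO and 616 ± 39.3 CPM in WT (SD, n = 2 each). For Msr1 they were Map3k7, Brip1os and Hax1, with r of 0.994, 0.993 and 0.992, and Map3k7 averaged 77.7 ± 0.7 CPM in AD CKO, 57.3 ± 0.8 CPM in AD WT, 73.8 ± 3.0 CPM in CKO and 58.8 ± 1.7 CPM in WT. For Fcgr4 they were Gstm5, Fut8 and Nrep, with r of 0.988, 0.986 and 0.984. The 8 points fall into groups of libraries with and without the knockout, and r describes that shared split.

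In the astrocyte libraries the receptors were read at lower levels, with 1 exception. Microglia over astrocyte CPM, set side by side without a test since the tables are separate, was 9.40 to 111 for Fcer1g, 11.97 to 113 for Fcgr3, 6.23 to 47.0 for Fcgr2b, 34.5 to 65.3 for Stab1 and 7.39 to 15.9 for Msr1 over the 4 genotypes. For Scarb1 it was 0.749 to 1.49. Scarb1 was at 55.2 to 80.2 CPM in astrocyte libraries, which was 3.89 to 10.1% of their microglia marker sum, against 0.124 to 0.202% in microglia libraries. For Fcgr3 these percentages were 2.31 to 4.35 in astrocyte libraries and 2.89 to 3.44 in microglia libraries.

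**Figure D4:**
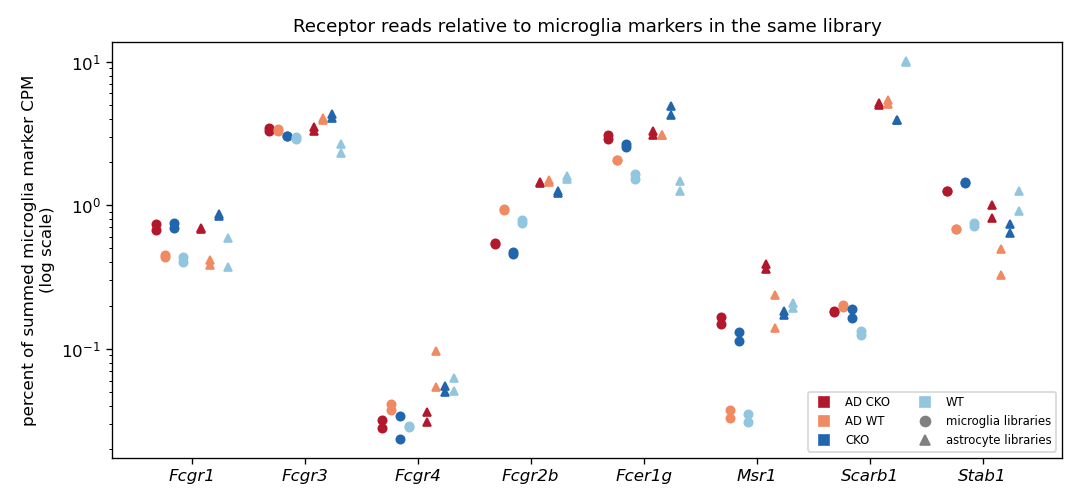
Receptor CPM as a percentage of the summed CPM of 10 microglia markers in the same library (y axis, log scale), for 8 receptors (x axis), with circles for microglia libraries and triangles for astrocyte libraries. Scarb1 lies at 3.89 to 10.1% in astrocyte libraries and 0.124 to 0.202% in microglia libraries, while for Fcgr3 the range in microglia libraries, 2.89 to 3.44%, lies within that in astrocyte libraries.

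In astrocyte libraries of CKO mice, 8 of the 8 receptors tested were higher than in WT, beside 64% of the 20116 genes tested there (31.6% higher, 32.4% lower). Fcer1g had 101 and 85.2 CPM in CKO, against 8.14 and 6.83 CPM in WT, a log2 fold change of 3.64 ± 0.10 (adjusted p = 3.39e-17). Fcgr3 had 83.7 and 87.3 CPM in CKO, against 14.7 and 12.7 CPM in WT (log2 2.65 ± 0.08), and Fcgr1 had 17.3 and 17.3 CPM, against 3.27 and 2.04 CPM (log2 2.72 ± 0.16). None of these groups overlapped. The other log2 fold changes were 1.76 ± 0.50 for Fcgr4, read with 9 to 40 counts per astrocyte library, 1.72 ± 0.26 for Msr1, 1.55 ± 0.10 for Fcgr2b, 1.22 ± 0.18 for Stab1 and 0.53 ± 0.06 for Scarb1.

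The microglia markers moved with these values. Their sum was 1245 to 1266 CPM in AD CKO astrocyte libraries, 1204 to 1218 CPM in AD WT, 2007 to 2062 CPM in CKO and 549 to 554 CPM in WT, and 9 of the 10 rose and 1 fell for CKO over WT. With libraries scaled to these markers, which put the median of all genes at -1.87 for CKO over WT, Fcer1g at 1.76, Fcgr1 at 0.83 and Fcgr3 at 0.76 were still higher in CKO. Fcgr2b at -0.33, Stab1 at -0.66 and Scarb1 at -1.36 were then lower, and Fcgr4 at -0.11 and Msr1 at -0.16 no longer passed and had turned in sign. Endothelial markers were at 4357 to 4415 CPM in CKO, against 1646 to 1650.0 CPM in WT, with 8 of 8 higher, and border macrophage markers at 40.5 to 48.4 CPM, against 19.4 to 20.1 CPM, with 6 of 8 higher. Neutrophil markers were at 128 to 139 CPM in CKO, against 51.5 to 54.1 CPM in WT, with 6 of 7 higher. B cell markers were at 88.0 to 95.2 CPM in CKO, against 10.4 to 11.4 CPM in WT, with Pax5 at 0 in all 4 of these libraries. T and NK cell markers were higher in 5 of 5 and monocyte markers in 4 of 5. The astrocyte markers themselves were lower in 8 of 10 and higher in 2, with a median log2 fold change of -1.09, and summed to 7704 to 7938 CPM in CKO, against 18691 to 19335 CPM in WT. The part of other cells in the remaining differences was not tested. The markers used for scaling differed in knockout microglia as well. In microglia libraries they summed to 33161 to 34372 CPM in CKO, against 51496 to 53946 CPM in WT. As a percentage of that sum Fcgr1 averaged 0.723 in CKO and 0.418 in WT there, Fcer1g 2.60 and 1.58, and Fcgr3 3.03 and 2.94. How far this enters the marker-scaled values of astrocyte libraries was not tested.

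**Figure D5:**
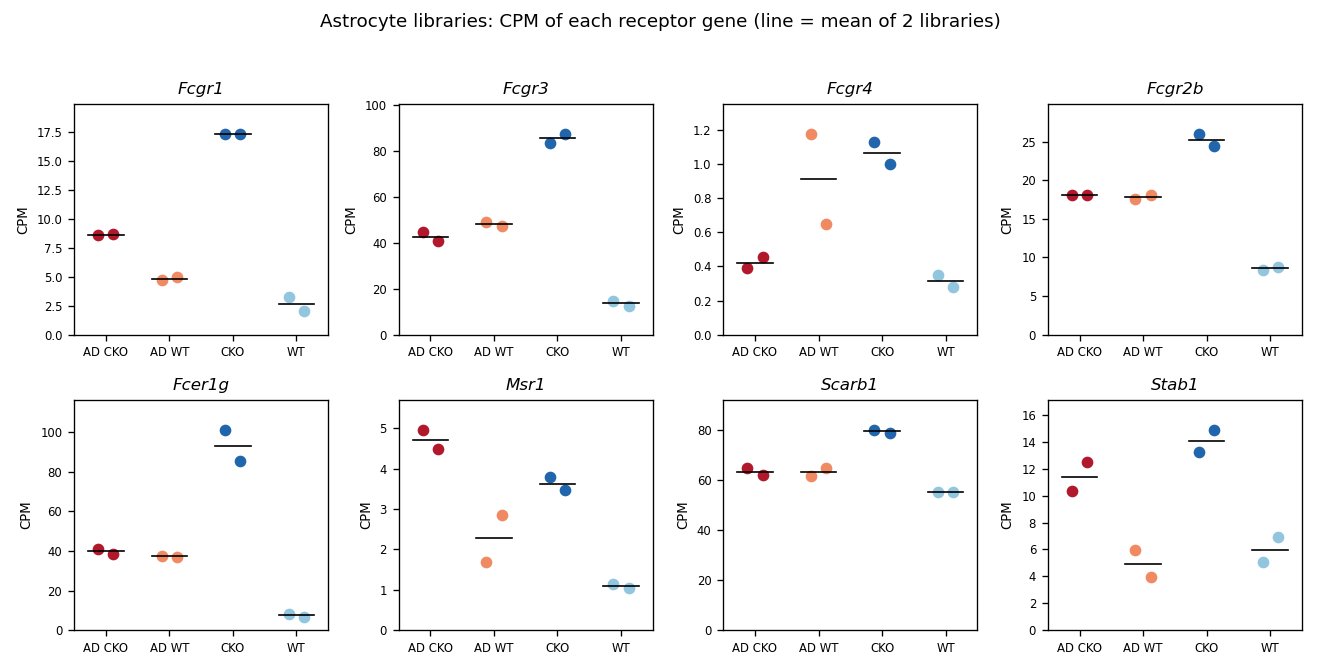
CPM of the 8 tested receptor genes in each of the 8 astrocyte libraries, 1 panel per gene, with genotypes along the x axis, a point per library and a line at the mean of the 2 libraries. Fcer1g is at 101 and 85.2 CPM in CKO and at 8.14 and 6.83 CPM in WT, and Scarb1 stays between 55.2 and 80.2 CPM in all 8 libraries.

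In AD WT over WT astrocyte libraries, 7 of the 8 receptors tested rose, beside 38% of genes (20% higher, 18% lower). Fcer1g had 37.7 and 37.1 CPM in AD WT, against 8.14 and 6.83 CPM in WT (log2 2.33 ± 0.10, adjusted p = 6.09e-13), and Fcgr3 had 48.9 and 47.4 CPM, against 14.7 and 12.7 CPM (log2 1.82 ± 0.08, adjusted p = 8.64e-14). Neither gene's groups overlapped. Fcgr4 rose by 1.54 ± 0.50 (adjusted p = 0.0195), a call lost in 5 of 16 alternatives: with DESeq2 (log2 1.53), without AD WT replicate 1 (log2 1.04), without either WT library (log2 1.69 and 1.37) and on the marker scale given next. Scarb1 rose by 0.20 ± 0.06 (adjusted p = 0.0125), a call lost without AD WT replicate 2 (log2 0.15) and without either WT library (log2 0.19 and 0.18). Stab1 at -0.28 ± 0.20 did not pass. With libraries scaled to the microglia markers, which put the median of all genes at -1.10, Fcer1g at 1.19 and Fcgr3 at 0.68 were still higher. Fcgr4 at 0.41 no longer passed there (adjusted p = 0.461). Fcgr1 at -0.25, Fcgr2b at -0.08, Msr1 at -0.09 and Scarb1 at -0.94 turned in sign, and Stab1 at -1.41 passed.

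Between AD CKO and AD WT astrocyte libraries, whose microglia marker sums were close, 4 of the 8 receptors tested changed, 3 higher and 1 lower, beside 52.1% of genes (25.1% higher, 27% lower). Msr1 was at 4.96 and 4.47 CPM in AD CKO, against 1.70 and 2.85 CPM in AD WT (log2 1.06 ± 0.23, adjusted p = 5.58e-04). Stab1 was at 10.3 and 12.5 CPM, against 5.98 and 3.93 CPM (log2 1.20 ± 0.19, adjusted p = 7.35e-05), and Fcgr1 at 8.61 and 8.68 CPM, against 4.69 and 5.01 CPM (log2 0.83 ± 0.15, adjusted p = 8.45e-05). These 3 receptors also rose in AD CKO microglia. Border macrophage markers were at 37.5 to 41.6 CPM in AD CKO, against 18.2 to 19.4 CPM in AD WT, with 5 of 8 higher. Endothelial markers were at 2327 to 2341 CPM, against 2016 to 2019.8 CPM, with 6 of 8 higher, and oligodendrocyte markers at 18567 to 18703 CPM, against 6576 to 6765 CPM, with 8 of 8 higher. Of the 10 microglia markers 6 rose and 1 fell, although their sums were close, and of the 10 astrocyte markers 8 fell and 1 rose. The part of these cells was not tested. Fcgr3 at -0.17 ± 0.07 was lower (adjusted p = 0.0463), a call lost in 13 of 17 alternatives. Fcgr2b at 0.02 ± 0.09, Fcer1g at 0.09 ± 0.08, Scarb1 at 0.00114 ± 0.059 and Fcgr4 at -1.11 ± 0.47 did not pass.

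In AD CKO over CKO astrocyte libraries 6 of the 8 receptors tested fell, beside 59.8% of genes (31.4% higher, 28.4% lower). Fcer1g fell by 1.23 ± 0.08 on the log2 scale, to 41.3 and 38.4 CPM in AD CKO, against 101 and 85.2 CPM in CKO. Fcgr3 fell by 1.00 ± 0.07, Fcgr1 by 1.00 ± 0.14, Fcgr4 by 1.33 ± 0.47, Fcgr2b by 0.48 ± 0.09 and Scarb1 by 0.33 ± 0.06. The Fcgr4 call was lost in 5 of 16 alternatives: with DESeq2 (log2 -1.33), without either AD CKO library (log2 -1.21 and -1.43), without CKO replicate 1 (log2 -1.23) and on the microglia marker scale. Microglia markers were lower too, as given above, and scaling to them put the median of all genes at 0.69. This scaling turned Fcgr2b to 0.22, Scarb1 to 0.37 and Stab1 to 0.40, all 3 past the threshold. Fcer1g at -0.53 and Fcgr3 at -0.30 still passed on that scale, and Fcgr1 at -0.30 (adjusted p = 0.0606) and Fcgr4 at -0.63 (adjusted p = 0.237) did not.

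The interaction in astrocyte libraries passed for 6 of the 8 receptors tested, all 6 negative, beside 57.8% of genes (29.5% positive, 28.3% negative). It was -3.55 ± 0.13 for Fcer1g, -2.87 ± 0.69 for Fcgr4, -2.82 ± 0.11 for Fcgr3, -1.88 ± 0.23 for Fcgr1, -1.53 ± 0.13 for Fcgr2b and -0.52 ± 0.08 for Scarb1. On the microglia marker scale, which put the median of all genes at 1.80, Fcer1g at -1.72 and Fcgr3 at -0.99 still passed. Fcgr1 at -0.05 (adjusted p = 0.850), Fcgr4 at -1.04 (adjusted p = 0.169) and Fcgr2b, turned to 0.30 (adjusted p = 0.0511), did not pass there, and Msr1 at 1.16, Scarb1 at 1.31 and Stab1 at 1.81 passed with the opposite sign.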

How the data were processed

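Total RNA was read as paired 150-base reads from amplified cDNA, per the labels' protocols. Microglia and astrocytes each have a deposited table of expected counts, one row a gene, which the authors made with fastp, HISAT2 and StringTie on build mm10, per the submitters' processing notes, without versions. The annotation release, the counting step and its use of strand are not given in the sources used here. How reads of similar genes were assigned is not given either, so the expected counts of Fcgr2b and Fcgr3 are uncertain.

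Fractional values were rounded, and edgeR 4.0.16 was run under R 4.3.3 (filterByExpr, TMM, robust quasi-likelihood F-tests, two-sided), each cell type alone over its 8 libraries, with Benjamini-Hochberg adjustment over all genes tested in a comparison. The steps were tested on simulated counts for CKO over WT only, with a fixed dispersion. Far fewer genes were changed there than were called here, raised and lowered in nearly equal number. The simulation therefore does not cover shifts as wide as those in these libraries. Errors after ± are standard errors of log2 fold changes and SDs of levels. The 5 comparisons per cell type were CKO over WT, AD WT over WT, AD CKO over AD WT, AD CKO over CKO and the interaction. Rows without a gene symbol, 1401 in microglia and 1542 in astrocytes, have identifiers and were kept. Libraries of a genotype differed by more than sampling noise (mean chi-square per gene 3.77 to 7.97), so none was counted as a duplicate.

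Coordinates and transcripts are from GENCODE M21 (GRCm38), matched to 94% of microglia and 91.4% of astrocyte features, and promoters from RefSeq (GRCm38.p6). The 9 receptors were chosen by name. The genes, gene lists and marker lists were chosen with earlier results of these data known. Of each list, up to 4 called genes with the smallest p per comparison were eligible to be named, and for the 3 receptors with the widest range the 3 most similar genes with a mean of at least 5 CPM. The alternatives were RLE size factors, no filter, a filter of 1 CPM in 2 libraries, DESeq2 1.42.0, limma-voom (limma 3.58.1), a replicate block, the compared groups alone, leaving out each library, Fcgr2b and Fcgr3 summed, scaling of astrocytes to microglia markers and another transcript length.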

Additional observations from a re-analysis of the deposited data

Results flagged for a closer look

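In microglia the knockout effect differed between AD and non-AD mice by the interaction test for 3 receptors: by 0.22 on the log2 scale for Fcgr3, 0.19 for Fcgr2b and 0.53 for Msr1. The Fcgr2b call was lost in 8 of 15 alternatives and the Msr1 call in 3 of 14, while Fcgr3 kept its call in 15 of 15. In astrocyte libraries it differed for 6 receptors, by -1.88 for Fcgr1, -2.82 for Fcgr3, -2.87 for Fcgr4, -1.53 for Fcgr2b, -3.55 for Fcer1g and -0.52 for Scarb1. With these libraries scaled to microglia markers, 2 of the 6 passed with the same sign, Fcer1g at -1.72 and Fcgr3 at -0.99. Fcgr1 at -0.05, Fcgr4 at -1.04 and Fcgr2b at 0.30 did not pass on that scale, and Scarb1 passed at 1.31.

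Some receptors moved in opposite directions in the libraries of the cell types, a difference that was not tested. For CKO over WT the log2 fold change was -0.60 in microglia and 2.65 in astrocyte libraries for Fcgr3, -0.64 and 1.76 for Fcgr4, and -1.36 and 1.55 for Fcgr2b. For AD CKO over CKO it was 0.25 in microglia and -1.001 in astrocyte libraries for Fcgr3, 0.32 and -0.48 for Fcgr2b, and 0.31 and -1.23 for Fcer1g. On the microglia marker scale the astrocyte values of Fcgr4 at -0.11 (adjusted p = 0.837) and Fcgr2b at -0.33 for CKO over WT, and of Fcgr2b at 0.22 for AD CKO over CKO, had the sign of the microglia values.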

How the results depend on the processing

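Over the alternatives, 1142 of the single receptor values kept their direction and side of the threshold, 50 lost a call, 22 gained one and 30 changed sign. Counts of receptors called moved by over 1.5 times in 4 cases. The microglia interaction gave 5 with the replicate block, against 3, and the astrocyte AD WT over WT comparison gave 4 with libraries scaled to microglia markers, against 7. Without AD WT replicate 2 or without CKO replicate 2 the microglia interaction gave 1. Leaving out 1 library at a time, which takes the spread of the single library left from the other genotypes, gave 5 to 7 calls in microglia for CKO over WT, 3 to 4 for AD WT over WT, 8 to 8 for AD CKO over AD WT, 4 to 5 for AD CKO over CKO and 1 to 4 for the interaction. In astrocyte libraries it gave 8 to 8, 5 to 7, 3 to 4, 5 to 6 and 6 to 7 in the same order. The labels tie replicate numbers to no shared animal or batch, and the correlation of same-numbered deviations was -0.022 to 0.139 in microglia and -0.027 to 0.239 in astrocytes, so no pairing was assumed.

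Changes of sign in microglia were values near 0 without a call: with 1 library left out, Msr1 for AD WT over WT ran from -0.17 to 0.077, above 0 without AD WT replicate 2 (0.031) and without WT replicate 2. Fcgr4 ran from -0.073 (without CKO replicate 2) to 0.44 for AD CKO over CKO and from -0.37 to 0.13 (without CKO replicate 1) for the interaction. In astrocyte libraries scaled to microglia markers the values that turned were, for CKO over WT, Fcgr4 at -0.11, Fcgr2b at -0.33, Msr1 at -0.16, Scarb1 at -1.36 and Stab1 at -0.66. For AD WT over WT they were Fcgr1 at -0.25, Fcgr2b at -0.080, Msr1 at -0.088 and Scarb1 at -0.94, and for AD CKO over AD WT Fcgr2b at -0.031 and Scarb1 at -0.051. For AD CKO over CKO they were Fcgr2b at 0.22, Scarb1 at 0.37 and Stab1 at 0.40, and for the interaction Fcgr2b at 0.30, Msr1 at 1.16, Scarb1 at 1.31 and Stab1 at 1.81. The remaining turns were of values near 0 in the main fit. Scarb1 for AD CKO over AD WT was at -0.00117 with the 1 CPM filter. With 1 library left out it ran from -0.023 to 0.049, below 0 without AD CKO replicate 1 and without AD WT replicate 1. The summed reads of Fcgr2b and Fcgr3 were at -0.12 there, against 0.02 for Fcgr2b alone. The Stab1 interaction, at -0.03 in the main fit, ran from -0.27 to 0.33 with 1 library left out, so its sign is not settled. It was above 0 without AD CKO replicate 1, AD WT replicate 1, CKO replicate 2 or WT replicate 1. A fit of the compared groups alone gives no interaction of its own and was not run for it. Beyond the scaling itself, the cause was not tested. With 2 libraries a group, small changes such as that of Fcgr1 in CKO microglia rest on single libraries, and Fcgr4 in astrocyte libraries is limited by its counts.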
